A study of Arabidopsis thaliana with 18 samples.

Results

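The 147 genes described here were low in wild-type Arabidopsis seedlings at 22 °C and higher in both a mutant of SANT-domain genes and a mutant of a histone deacetylase. They were chosen among 32548 genes from the deposited FPKM (fragments per kilobase of gene and per M fragments, where M stands for mega). After 0.1 was added to each value, the level at 22 °C in each mutant was at least 2 times that in wild type. In addition, both mutants had an FPKM of at least 0.5 before the addition, and wild type was under 5. The values at 22 °C therefore describe the choice and test nothing. Only the libraries made after heat were not used in it.

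Messenger RNA was sequenced from seedlings of Arabidopsis thaliana aged 7 days, raised in long days (16 h light, 8 h dark) and either kept at 22 °C or held at 37 °C for 1 h. The stated question was what the SANT1/2/3/4 proteins do to transcription in the heat. Col-0 is the laboratory wild type, sant-null is described as a quadruple mutant, and hda6 as an EMS line, that is, one from chemical mutagenesis, which may carry other mutations. There were 3 libraries in each of the 6 groups of genotype and temperature, 18 in all, and the labels name no transgene or other treatment. No label says if the 3 libraries in a group stem from separate sowings, so p-values measure the spread between these libraries only, which may be technical.

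HDA6 is a histone deacetylase of the RPD3 type, a family of enzymes that remove acetyl groups from histone tails and thereby make chromatin less open to transcription. In Arabidopsis it is known for keeping transposons, transgenes and ribosomal RNA gene copies silent, together with DNA methylation. SANT domains are short protein modules, common in chromatin complexes, that often contact histone tails or deacetylases. Genes that stay almost silent in vegetative seedlings include floral repressors, genes of reproductive tissues and seeds, and genes close to transposon remnants.

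The FPKM file holds 1 value per group and no single libraries, so FPKM are given as the authors' group values without SD. The authors' deposited tables of log2 fold changes give a standard error (SE) and a DESeq2 adjusted p for each gene, and their mean normalized counts sum to between 20.7 and 23.2 M per table. HDA6 (AT5G63110) was listed at FPKM 6.83 for Col-0, 6.94 for sant-null and 7.59 for hda6 at 22 °C, so its transcript does not check the hda6 label. Green-tissue markers (6 of 6 at FPKM 1 or more) summed to between 13345 and 17245 in the 6 groups. Root and root-hair markers, also 6 of 6, summed to 26.5 for Col-0, 32.9 for sant-null and 39.9 for hda6 at 22 °C, and to 6.96, 7.43 and 10.3 at 37 °C. Seed markers (11 genes) summed to 1.14 for Col-0, 3.21 for sant-null and 1.18 for hda6 at 22 °C, where CRA1, a seed storage protein, was at 0.0361, 1.67 and 0.0262. Pollen markers (6 genes) summed to 0.0562, 0.279 and 0.0911 at 22 °C. At 37 °C the seed sums were 0.793, 0.563 and 0.632 and the pollen sums 0.0249, 0.0407 and 0.102 for Col-0, sant-null and hda6. SESA1, SESA3, HTR10 and DUO1 were listed at 0 throughout, and 10 floral-organ genes summed to at most 3.63 in any group. The part of the root, seed and pollen markers' differences in the results below was not tested. In whole seedlings, more cells of a type and more RNA per cell cannot be told apart.

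At 22 °C, where the choice was made, the authors' deposited tables called 127 of the 147 higher in sant-null and 120 in hda6, and 0 lower in either. Over all genes tested at 22 °C, 8.82% were called higher and 8.98% lower in sant-null, and 6.1% and 4.5% in hda6; nothing is read from these counts. More than 50% of the genes were still called higher in each mutant in the heated libraries. In the authors' deposited table comparing sant-null with Col-0 at 37 °C, 88 of the 147 were called higher at an adjusted p under 0.05 and 0 were called lower, against 4.72% of all genes tested called higher and 4.05% called lower. Without adjustment, 0 were lower at p under 0.05 in that DESeq2 table. Of the remainder, 43 were tested and not called, 11 were listed with no adjusted p and 5 were not listed. For hda6 compared with Col-0 at 37 °C, the authors' deposited table called 77 higher and 1 lower, against 9.06% and 9.41% of all genes tested. There, 50 were tested and not called, 13 had no adjusted p and 6 were not listed. Both tables share the Col-0 libraries at 37 °C, so their counts are not independent of each other.

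On the FPKM scale with 0.1 added, the median ratio of sant-null to Col-0 over all 147 was 3.83-fold at 22 °C, where the choice fixed it above 2, and 2.82-fold at 37 °C. For hda6 these medians were 2.75-fold and 2.03-fold. At least a 2-fold ratio was kept at 37 °C by 97 of the 147 in sant-null and by 77 in hda6. The added 0.1 shrinks these ratios where Col-0 is low, and the median FPKM of Col-0 at 37 °C was 0.140. A log2 fold change of at least 1 was listed in the authors' deposited tables at 37 °C for 113 of 142 in sant-null. For hda6 it was 104 of 141, in both cases whether called or not. In the authors' deposited tables at 37 °C the median log2 fold change was 1.87 over the 142 listed in sant-null and 1.55 over the 141 listed in hda6, where the medians over all listed genes were 0.02 in either table. Leaving out those listed at 0 in Col-0 at 37 °C, whose fitted fold changes have no fixed size, the medians were 1.80 over 131 and 1.52 over 131.

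**Figure D1:**
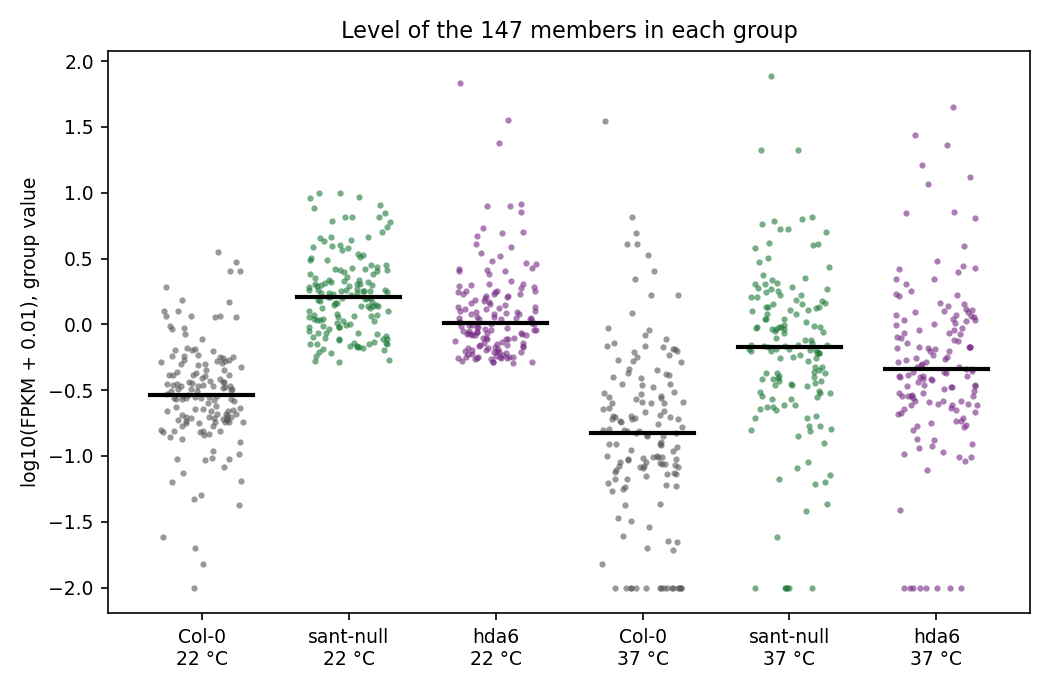
Level of each of the 147 genes in the 6 groups, as log10 of the authors' group FPKM plus 0.01, with 1 point per gene and a black line at the median. The median FPKM at 22 °C was 0.281 for Col-0, 1.61 for sant-null and 1.02 for hda6, which the choice fixed, and at 37 °C it was 0.140, 0.666 and 0.445; points at -2 are genes listed at 0.

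Nearly all of the 147 were low-level transcripts, with between 141 and 147 of them under 10 FPKM in each of the 6 groups. The highest member at 22 °C was AT3G01345 in hda6, at 68.4 FPKM, and at 37 °C AT1G50390 in sant-null, at 76.6 FPKM. In Col-0 at 22 °C they ranged from 0 to 3.56 FPKM, with 14 of the 147 at 1 or more. In sant-null at 22 °C 108 of the 147 reached 1, and in hda6 75 did. The level in sant-null was above that in hda6 for 122 of the 147 at 22 °C and for 103 at 37 °C, without a test of this order. At 22 °C sant-null had at least 2 times the level of hda6 for 34, and hda6 at least 2 times that of sant-null for 3.

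The share called at 37 °C was larger in ranges with more reads, which is a description. The mean normalized count includes the mutant libraries. For genes low in Col-0 a large count thus goes with a high mutant level, and the ranges are not independent of the calls. For sant-null the authors' deposited table called 42 of 44 with a mean normalized count of at least 50 higher, 41 of 62 between 10 and 50, and 5 of 25 tested below 10. Over all genes tested in these ranges of the authors' deposited table, 4.91%, 5.94% and 2.67% were called higher. In hda6 the authors' deposited table called 31 of 32, 37 of 64 and 9 of 32, against 11.3%, 4.98% and 3.86% of all genes. The median SE of the log2 fold change was 0.26 in the upper range and 1.47 in the lower for sant-null, so a 2-fold change was not detectable for most of the lowest.

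**Figure D2:**
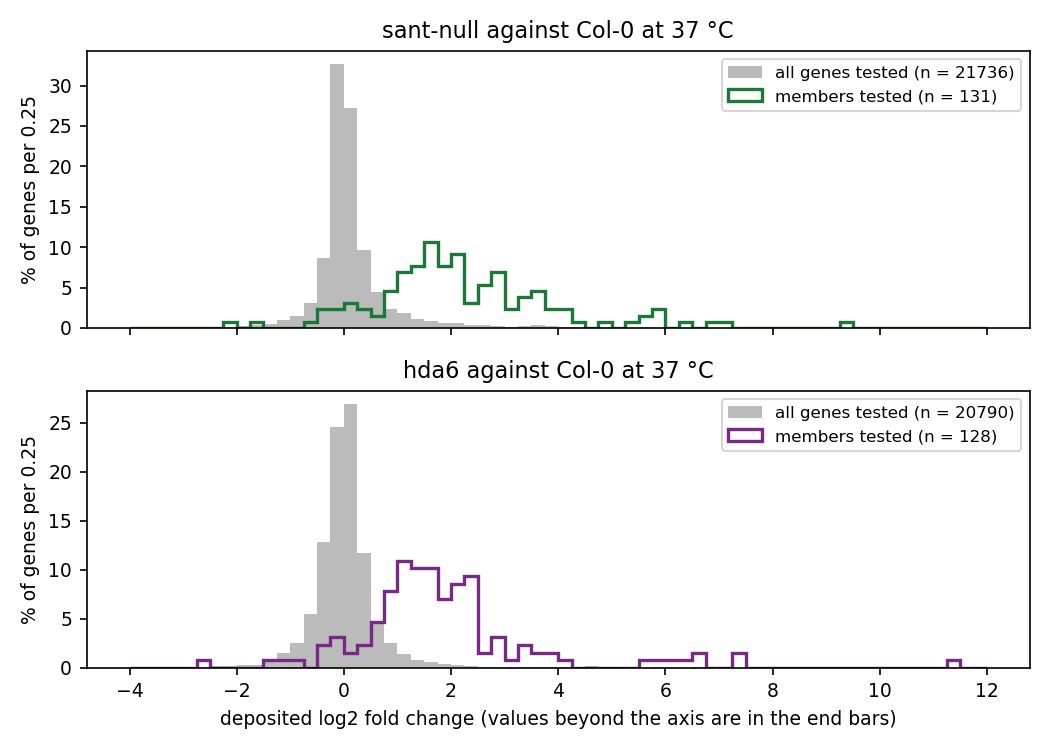
Distribution of the deposited log2 fold change at 37 °C in bars of 0.25, as a percentage of the genes tested, for all genes (grey) and for those of the 147 with an adjusted p (outline), sant-null above and hda6 below. The outlines lie mostly to the right of 0, and those with no adjusted p (16 in sant-null, 19 in hda6) are not drawn.

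The stretch just before the start of 4 genes is shown as an example of the members' upstream sequence. They are the protein-coding members with no overlapping annotated gene and no near-identical copy, called higher in both mutants at 37 °C, that had the largest smaller-of-both ratio at 22 °C. Each line holds the 150 bases upstream of the annotated gene start, 5′ to 3′ on the gene's strand, from the RefSeq annotation of TAIR10.1. The locations are chr4:10356315-10356464 on the plus strand for AT4G18900, chr5:26444435-26444584 on the minus strand for AT5G66150, chr5:21953508-21953657 on the minus strand for AT5G54095 and chr3:128988-129137 on the plus strand for AT3G01345. Capitals mark a telo-box, AAACCCTA on either strand. G-box, RY and heat shock elements were also searched, in the spellings given further on, and none lies in these 4 stretches.
AT4G18900: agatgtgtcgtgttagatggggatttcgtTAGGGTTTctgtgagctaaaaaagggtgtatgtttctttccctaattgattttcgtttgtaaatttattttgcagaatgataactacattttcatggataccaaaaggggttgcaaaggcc
AT5G66150: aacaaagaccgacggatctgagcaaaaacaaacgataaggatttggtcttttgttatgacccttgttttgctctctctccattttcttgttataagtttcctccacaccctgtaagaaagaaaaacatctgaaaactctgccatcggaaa
AT5G54095: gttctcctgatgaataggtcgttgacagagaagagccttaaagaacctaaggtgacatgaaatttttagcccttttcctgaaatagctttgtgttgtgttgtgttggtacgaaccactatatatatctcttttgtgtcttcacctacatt
AT3G01345: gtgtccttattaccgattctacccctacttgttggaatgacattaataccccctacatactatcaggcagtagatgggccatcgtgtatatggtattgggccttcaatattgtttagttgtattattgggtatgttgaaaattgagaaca
These 150 bases are between 61.3% and 63.3% A and T. The telo-box in the AT4G18900 stretch reads TAGGGTTT, the motif on the opposite strand.

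AT4G18900 encodes a protein of WD40 repeats, modules that fold into a propeller and hold protein complexes together. It was listed at FPKM 0.00499 for Col-0, 2.81 for sant-null and 1.64 for hda6 at 22 °C, and at 0.0101, 1.5 and 1.08 at 37 °C. At 37 °C the authors' deposited tables gave log2 fold changes of 7.17 ± 1.05 (adjusted p = 9.46e-10) in sant-null and 6.74 ± 1.07 (adjusted p = 1.09e-08) in hda6. Near silence in Col-0 at both temperatures makes these fold changes uncertain in size, as their SE of about 1 shows.

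AT5G66150 encodes a glycosyl hydrolase of family 38, the alpha-mannosidases that trim sugar chains on proteins. Its FPKM stood at 0.0322 for Col-0, 4.33 for sant-null and 1.06 for hda6 at 22 °C, and at 0.019, 1.84 and 0.366 at 37 °C. In the authors' deposited tables at 37 °C it was higher by 6.49 ± 0.51 (adjusted p = 1.23e-34) in sant-null and 4.21 ± 0.60 (adjusted p = 1.41e-10) in hda6. AT5G54095, annotated as proteoglycan-like, was listed at 0.0928 for Col-0, 5.48 for sant-null and 1.23 for hda6 at 22 °C, and at 0.113, 5.26 and 1.45 at 37 °C. For this gene the authors' deposited tables at 37 °C gave 5.46 ± 0.46 (adjusted p = 1.43e-29) in sant-null and 3.65 ± 0.56 (adjusted p = 2.56e-09) in hda6. Both were highest in sant-null at both temperatures. For AT5G66150 the difference between the mutants at 37 °C, computed from the authors' deposited tables, was 2.28 ± 0.79 (adjusted p = 0.0757), which did not pass. For AT5G54095 it was 1.81 ± 0.72 (adjusted p = 0.172), which did not pass either.

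AT3G01345 is uncharacterized and showed the reverse order. It was listed at FPKM 0.174 for Col-0, 1.78 for sant-null and 68.4 for hda6 at 22 °C, and at 0.134, 0.636 and 22.9 at 37 °C. At 37 °C the authors' deposited tables gave log2 fold changes of 2.18 ± 0.47 (adjusted p = 1.11e-04) in sant-null and 7.37 ± 0.27 (adjusted p = 3.21e-156) in hda6. The log2 level in sant-null minus that in hda6 at 37 °C was -5.2 ± 0.54 (adjusted p = 3.76e-19), from a Wald test on the authors' deposited tables, so the gene was called higher in both mutants and higher in hda6 than in sant-null.

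**Figure D3:**
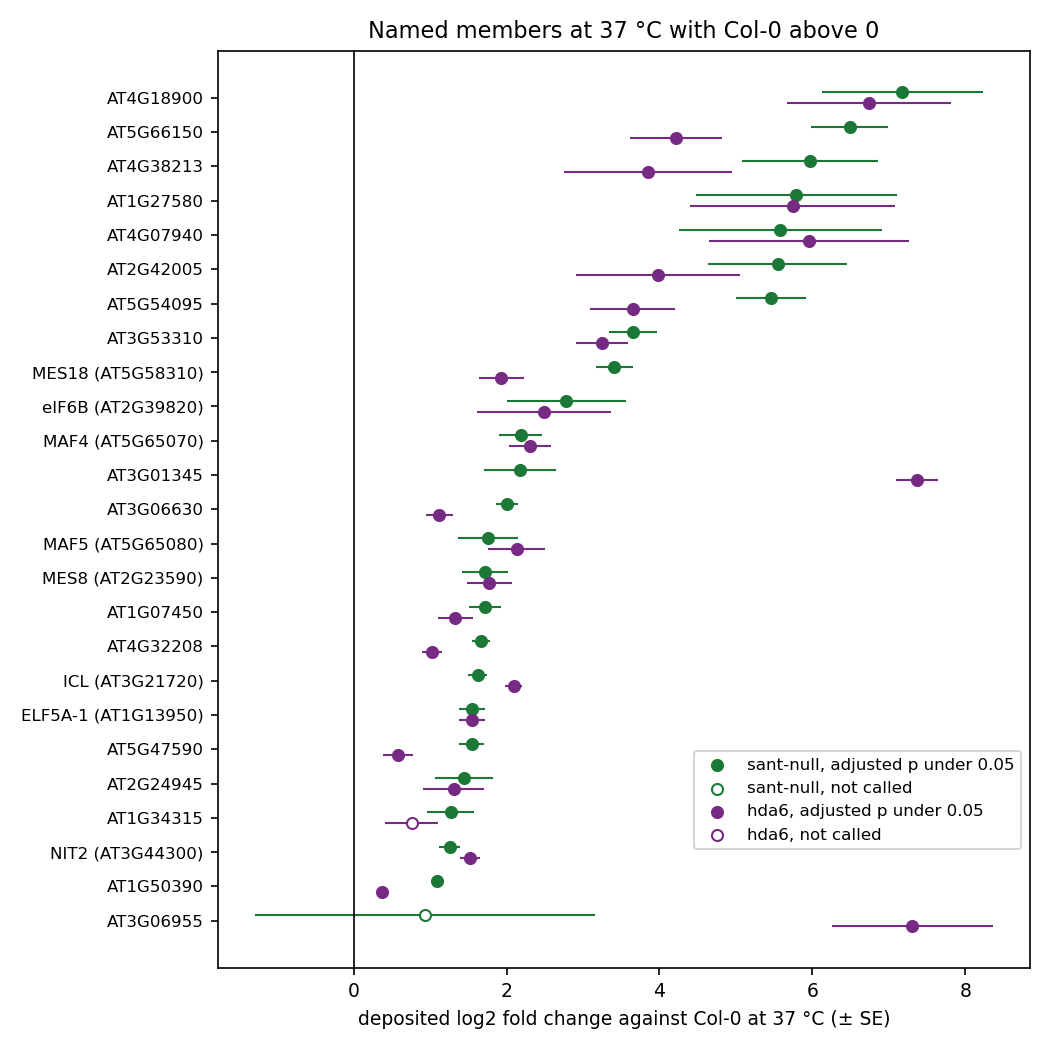
Deposited log2 fold change against Col-0 at 37 °C for named genes with Col-0 above 0 and an adjusted p in both mutants. Bars are 1 SE, with sant-null in green and hda6 in purple, and filled points have an adjusted p under 0.05. Genes picked for this text are not drawn. Those named only for an edge of the rule or for being called lower, PRF4 among them, are also left out. AT4G18900 lies at 7.17 and 6.74, and AT3G01345 and AT3G06955 have hda6 points at 7.37 and 7.31 against sant-null points at 2.18 and 0.94.

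Several members encode transcription factors of the B3 and MADS-box families. The B3 proteins bind DNA through a plant-specific fold, and the REM branch of that family was named for its expression in reproductive meristems. REM22 (AT3G17010) was listed at FPKM 0.00989 for Col-0, 6.04 for sant-null and 0.646 for hda6 at 22 °C, and at 0, 2.34 and 0.252 at 37 °C. Since it was listed at 0 in Col-0 at 37 °C no fold is given, and in the authors' deposited tables it was called higher at adjusted p = 5.94e-13 in sant-null and 9.09e-05 in hda6. AT3G53310, another B3 gene, was listed at 0.44 for Col-0, 4.63 for sant-null and 3.29 for hda6 at 22 °C, and at 0.175, 2.26 and 1.65 at 37 °C, with log2 fold changes at 37 °C in the authors' deposited tables of 3.66 ± 0.32 (adjusted p = 2.73e-28) in sant-null and 3.25 ± 0.34 (adjusted p = 1.51e-19) in hda6. Levels in sant-null were the highest for both genes, and the excess over hda6 was larger for REM22 on the FPKM scale. The Wald test between the mutants at 37 °C passed for neither, with adjusted p = 0.551 for REM22 and 0.929 for AT3G53310.

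The other B3 members were lower. AT2G35310 was listed at FPKM 0.332 for Col-0, 1.56 for sant-null and 0.82 for hda6 at 22 °C, and at 0.223, 0.876 and 0.506 at 37 °C, and the authors' deposited tables at 37 °C gave 1.96 ± 0.39 (adjusted p = 2.59e-05) in sant-null and 1.21 ± 0.45 (adjusted p = 0.0425) in hda6. AT3G06220 was listed at 0.357 for Col-0, 1.06 for sant-null and 0.945 for hda6 at 22 °C, and at 0.409, 0.592 and 0.396 at 37 °C, and its log2 fold changes at 37 °C in the authors' deposited tables were 0.49 ± 0.44 (adjusted p = 0.648) in sant-null and -0.05 ± 0.52 (adjusted p = 0.971) in hda6, neither of which passed. By RefSeq product, 4 of 115 B3 genes in the table were members, beside 147 of all 32548 genes. Of the 4, 3 were called higher in each mutant at 37 °C, beside 67.2% of all members tested in sant-null and 60.2% in hda6. This grouping by product, and those that follow, were chosen after the values were seen.

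The MADS-box genes MAF4 (AT5G65070) and MAF5 (AT5G65080) lie next to each other on chromosome 5 and encode repressors of flowering related to FLC. MAF4 was listed at FPKM 0.561 for Col-0, 2.68 for sant-null and 1.75 for hda6 at 22 °C, and at 0.341, 1.59 and 1.69 at 37 °C. MAF5 was listed at FPKM 0.442 for Col-0, 1.32 for sant-null and 1.29 for hda6 at 22 °C, and at 0.261, 0.916 and 1.16 at 37 °C. Both mutants stood above Col-0 at both temperatures, with close values for MAF5. In the authors' deposited tables at 37 °C the log2 fold changes were 2.18 ± 0.28 (adjusted p = 7.25e-13) in sant-null and 2.31 ± 0.27 (adjusted p = 3.11e-15) in hda6 for MAF4, and 1.75 ± 0.39 (adjusted p = 2.84e-04) in sant-null and 2.13 ± 0.37 (adjusted p = 3.19e-07) in hda6 for MAF5. Of the 6 genes of the FLC clade, 3 were called higher in each mutant at 37 °C, with MAF4 and MAF5, which the rule chose, among them. Over all genes tested, 4.72% were called higher in sant-null and 9.06% in hda6. FLC itself, the main repressor that vernalization silences, was no member because its ratio at 22 °C was under 2, with deposited log2 fold changes at 37 °C of 1.23 ± 0.26 in sant-null and 1.16 ± 0.29 in hda6 in the authors' deposited tables. FLM, MAF2 and MAF3, which were already at FPKM 2.5 to 3.48 in Col-0 at 22 °C, were not called.

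AT4G19630, annotated as a winged-helix DNA-binding factor, was listed at 0 in Col-0 at both temperatures. Its FPKM was 1.82 for sant-null and 0.556 for hda6 at 22 °C, then 0.783 and 0.415 after heat. The authors' deposited tables called it higher at 37 °C at adjusted p = 6.18e-06 in sant-null and 2.24e-04 in hda6, and no fold is given. AT4G07940 resembles CWC22, a splicing factor that loads the exon junction complex, and was listed at 0.0847 for Col-0, 2.52 for sant-null and 1.12 for hda6 at 22 °C, and at 0.0122, 0.623 and 0.783 at 37 °C. Its deposited log2 fold changes at 37 °C in the authors' deposited tables were 5.58 ± 1.33 (adjusted p = 7.71e-04) in sant-null and 5.95 ± 1.31 (adjusted p = 8.61e-05) in hda6. NRPE3B (AT2G15400), annotated as a subunit of DNA-directed RNA polymerase, was listed at 0.271 for Col-0, 1.71 for sant-null and 0.894 for hda6 at 22 °C, and at 0.166, 1.31 and 0.642 at 37 °C, and the authors' deposited tables at 37 °C gave 2.91 ± 0.37 (adjusted p = 3.07e-13) in sant-null and 1.93 ± 0.45 (adjusted p = 2.29e-04) in hda6. BHLH100 (AT2G41240), a regulator of iron uptake, was at FPKM 0.49 for Col-0, 3.21 for sant-null and 1.42 for hda6 at 22 °C, and at 0.191, 0.384 and 0.218 at 37 °C, and did not pass at 37 °C in the authors' deposited tables with 0.98 ± 0.61 (adjusted p = 0.421) in sant-null and 0.20 ± 0.65 (adjusted p = 0.892) in hda6. NRPE3B and BHLH100 were picked for this text after their values were seen, as were the other genes below that no rule names.

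Genes of protein synthesis appeared among both the most silent and the most expressed members. eIF6B (AT2G39820), a relative of the factor that keeps ribosomal subunits apart until translation starts, was listed at FPKM 0.0141 for Col-0, 0.641 for sant-null and 0.561 for hda6 at 22 °C, and at 0.0564, 0.417 and 0.327 at 37 °C. The authors' deposited tables at 37 °C gave 2.78 ± 0.78 (adjusted p = 0.0071) in sant-null and 2.48 ± 0.88 (adjusted p = 0.029) in hda6. ELF5A-1 (AT1G13950), an eIF5A protein that helps ribosomes past difficult peptide bonds, was listed at FPKM 2.98 for Col-0, 10.01 for sant-null and 7.89 for hda6 at 22 °C, and at 2.19, 6.58 and 6.4 at 37 °C, and the authors' deposited tables at 37 °C gave 1.55 ± 0.17 (adjusted p = 6.41e-18) in sant-null and 1.55 ± 0.17 (adjusted p = 1.03e-17) in hda6. Its log2 fold changes in the mutants were within 1 SE of each other. Of 420 genes with a ribosomal, initiation factor, translation elongation factor or poly(A)-binding product, 5 were members, beside 147 of all 32548 genes. The 5 do not include ELF5A-1 because of the wording of its product. Among those 5, the authors' deposited tables at 37 °C called 4 higher in sant-null and 3 in hda6. Of all members tested, 67.2% and 60.2% were called higher. PAB7 (AT2G36660), a poly(A)-binding protein, had log2 fold changes of 3.82 ± 0.36 (adjusted p = 1.21e-23) in sant-null and 2.67 ± 0.44 (adjusted p = 3.12e-08) in hda6 in the authors' deposited tables at 37 °C.

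The members with the highest levels at 22 °C included metabolic enzymes. NIT2 (AT3G44300), a nitrilase that turns nitriles such as the auxin precursor indole-3-acetonitrile into acids, was listed at FPKM 3.56 for Col-0, 8.06 for sant-null and 7.86 for hda6 at 22 °C, and at 2.51, 6.14 and 7.16 at 37 °C. ICL (AT3G21720), isocitrate lyase of the glyoxylate cycle, which turns seed oil into sugar after germination, was listed at 1.91 for Col-0, 6.57 for sant-null and 4.99 for hda6 at 22 °C, and at 1.66, 5.26 and 7.06 at 37 °C. Hydrolases of hormone methyl esters were represented by MES8 (AT2G23590), listed at 1.14 for Col-0, 6.0 for sant-null and 4.05 for hda6 at 22 °C, and at 0.645, 2.17 and 2.2 at 37 °C. At 37 °C all 3 were highest in hda6 on the FPKM scale, by a small margin for MES8.

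In the authors' deposited tables at 37 °C the log2 fold changes of NIT2 were 1.25 ± 0.14 (adjusted p = 5.55e-18) in sant-null and 1.52 ± 0.13 (adjusted p = 1.64e-29) in hda6. Those of ICL in the authors' deposited tables were 1.62 ± 0.12 (adjusted p = 1.09e-36) in sant-null and 2.09 ± 0.11 (adjusted p = 4.12e-72) in hda6. For MES8 the authors' deposited tables gave 1.72 ± 0.30 (adjusted p = 4.50e-07) in sant-null and 1.77 ± 0.30 (adjusted p = 8.07e-08) in hda6. The difference between the mutants for ICL, from the authors' deposited tables, was -0.47 ± 0.17 (adjusted p = 0.0939) and did not pass. NIT1, the neighbour of NIT2 and far more abundant, was at FPKM 163 in Col-0 at 22 °C, and its log2 fold changes at 37 °C in the authors' deposited tables were -0.04 ± 0.04 (adjusted p = 0.708) in sant-null and 0.28 ± 0.04 (adjusted p = 2.45e-13) in hda6.

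Among the other members with high levels at 22 °C were AT1G07450, an NAD(P)-binding oxidoreductase, and the uncharacterized AT1G34315 and AT2G24945. AT1G07450 was listed at FPKM 2.52 for Col-0, 9.07 for sant-null and 7.09 for hda6 at 22 °C, and at 1.21, 4.05 and 3.01 at 37 °C, with log2 fold changes at 37 °C in the authors' deposited tables of 1.72 ± 0.21 (adjusted p = 1.81e-13) in sant-null and 1.33 ± 0.23 (adjusted p = 1.75e-07) in hda6. AT1G34315 was at 2.53 for Col-0, 9.28 for sant-null and 8.25 for hda6 at 22 °C, and at 0.763, 1.91 and 1.3 at 37 °C, with 1.27 ± 0.30 (adjusted p = 8.86e-04) in sant-null and 0.76 ± 0.35 (adjusted p = 0.12) in hda6 in the authors' deposited tables at 37 °C. AT2G24945 was listed at 1.25 for Col-0, 5.03 for sant-null and 4.66 for hda6 at 22 °C, and at 0.268, 0.755 and 0.668 at 37 °C, with 1.44 ± 0.38 (adjusted p = 0.00369) in sant-null and 1.31 ± 0.40 (adjusted p = 0.00874) in hda6 in the authors' deposited tables at 37 °C. Only AT1G34315 in hda6 missed the threshold among these 6 values. HIS1-3 (AT2G18050), a linker histone H1 known to be induced by drought, was listed at 1.46 for Col-0, 6.52 for sant-null and 3.88 for hda6 at 22 °C, and at 0.552, 2.95 and 1.62 at 37 °C, and the authors' deposited tables at 37 °C gave 2.38 ± 0.27 (adjusted p = 1.54e-16) in sant-null and 1.56 ± 0.32 (adjusted p = 2.39e-05) in hda6.

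Some genes with the largest fold changes at 37 °C were at very low levels in Col-0. AT4G38213, annotated as a tubulin-tyrosine ligase, was at FPKM 0.142 for Col-0, 1.78 for sant-null and 0.555 for hda6 at 22 °C, and at 0.0329, 2.01 and 0.451 at 37 °C, and AT2G42005, an amino acid transporter of membranes, at 0.117 for Col-0, 1.92 for sant-null and 0.733 for hda6 at 22 °C, and at 0.0126, 0.622 and 0.203 at 37 °C. The log2 fold changes of AT4G38213 in the authors' deposited tables were 5.97 ± 0.89 (adjusted p = 1.99e-09) in sant-null and 3.85 ± 1.1 (adjusted p = 0.00438) in hda6. For AT2G42005 the authors' deposited tables gave 5.55 ± 0.91 (adjusted p = 9.43e-08) in sant-null and 3.98 ± 1.07 (adjusted p = 0.00216) in hda6. The F-box gene AT1G27580, which has a near-identical copy and an overlapping gene, was at 0.0371 for Col-0, 0.673 for sant-null and 0.546 for hda6 at 22 °C, and at 0.00509, 0.377 and 0.354 at 37 °C and was called higher in the authors' deposited tables at adjusted p = 3.54e-04 in sant-null and 2.56e-04 in hda6. ACP5 (AT5G27200), an acyl carrier protein of fatty acid synthesis, was listed at 0 in Col-0 at 37 °C and at FPKM 0.416 in sant-null and 0.646 in hda6, with adjusted p = 6.30e-04 in sant-null and 2.16e-05 in hda6 in the authors' deposited tables.

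A difference between the mutants at 37 °C was called for few of the genes. The difference of the log2 fold changes in the authors' deposited tables was tested for 127 of the 147, with summed squared errors that overstate the error, and 5 were called higher in sant-null and 2 lower. Over all 20614 genes tested, 2.44% were called higher in sant-null than in hda6 and 2.03% lower. The median difference over the 127 was 0.51 on the log2 scale, and 95 of the 127 were positive, beside a median of 0.02 and 10748 positive among all 20614. A missed threshold does not show that the mutants had the same level.

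Among the 5, the largest excess of sant-null was that of MES18 (AT5G58310), a methyl esterase, at FPKM 0.922 for Col-0, 7.62 for sant-null and 2.03 for hda6 at 22 °C, and at 0.529, 5.78 and 2.01 at 37 °C. Its difference between the mutants at 37 °C, from the authors' deposited tables, was 1.48 ± 0.38 (adjusted p = 0.00405). This gene overlaps 2 other annotated genes, with the treatment of shared reads not given in the sources used here. AT5G47590, a small heat shock protein of the HSP20 type, differed by 0.97 ± 0.25 (adjusted p = 0.00525) and the protein kinase gene AT3G06630 by 0.88 ± 0.23 (adjusted p = 0.00509), both from the authors' deposited tables. AT1G50390, a sugar kinase of the pfkB type, differed by 0.73 ± 0.11 (adjusted p = 2.75e-08) and the HSP70 gene AT4G32208 by 0.64 ± 0.17 (adjusted p = 0.0078), again from the authors' deposited tables. All 5 were also called higher in each mutant than in Col-0.

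In the opposite direction, AT4G16215, uncharacterized, was listed at FPKM 0.0408 for Col-0, 0.529 for sant-null and 35.4 for hda6 at 22 °C, and at 0, 0.235 and 27.6 at 37 °C. Its log2 level in sant-null minus hda6 at 37 °C, from the authors' deposited tables, was -6.92 ± 2.13 (adjusted p = 0.030), and AT3G01345 was the other gene called. AT4G16215 has a copy at 96.4% identity elsewhere in the genome, so reads may be shared. The long non-coding RNA AT3G06955 was also highest in hda6, at FPKM 0.178 for Col-0, 0.714 for sant-null and 23.9 for hda6 at 22 °C, and at 0.0771, 0.15 and 11.6 at 37 °C. The difference for AT3G06955, from the authors' deposited tables, was -6.37 ± 2.46 (adjusted p = 0.144) and did not pass, with 0.15 FPKM in sant-null at 37 °C.

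Chaperone genes were among the members although chaperones as a class are known for their rise with heat. AT5G47600 and AT5G47590 are neighbouring HSP20-type genes on chromosome 5. AT5G47600 was listed at FPKM 0.495 for Col-0, 6.96 for sant-null and 2.6 for hda6 at 22 °C, and at 0.608, 6.36 and 2.61 at 37 °C, and AT5G47590 at 1.15 for Col-0, 4.63 for sant-null and 2.89 for hda6 at 22 °C, and at 1.66, 5.02 and 2.49 at 37 °C. On Col-0 heat, the authors' deposited table put their log2 fold changes at 1.3 ± 0.49 and 1.54 ± 0.23, a description here, while the FPKM values before and after heat were close in every genotype. At 37 °C the authors' deposited tables gave 3.34 ± 0.27 (adjusted p = 1.54e-31) in sant-null and 2.1 ± 0.34 (adjusted p = 3.66e-08) in hda6 for AT5G47600, and 1.54 ± 0.16 (adjusted p = 3.68e-19) in sant-null and 0.57 ± 0.20 (adjusted p = 0.0228) in hda6 for AT5G47590. By product 3 of 78 heat shock chaperone genes were members, beside 147 of all 32548 genes. All 3 were called higher in each mutant at 37 °C, beside 67.2% of all members tested in sant-null and 60.2% in hda6.

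Only a few of the 147 reached high levels in the heat. Since 1 h at 37 °C moves the deposited scale and the FPKM scale apart, with the deposited log2 fold change in Col-0 above the log2 FPKM ratio by a median of 0.98 over 17873 genes, changes with heat are given on each and carry no test, as the 22 °C libraries chose the members. On the FPKM scale with 0.1 added, the median log2 change of the 147 with heat was -0.61 for Col-0, -1.14 for sant-null and -1.0 for hda6, beside -0.99, -1.05 and -1.07 for all genes with an FPKM of at least 0.5 at 22 °C. The 147 had a median FPKM of 0.281 in Col-0 at 22 °C, so most lay under that limit there. These medians are therefore not taken at like levels, and nothing is read from their difference. The authors' deposited table on Col-0 heat called 19 of the 147 higher and 16 lower, beside 30.1% and 29.9% of all genes tested, from which nothing is read.

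AT1G50390 was the most abundant member after heat, at FPKM 0.614 for Col-0, 1.71 for sant-null and 1.61 for hda6 at 22 °C, and at 34.8, 76.6 and 45.0 at 37 °C. AT4G32208 was listed at 0.134 for Col-0, 1.81 for sant-null and 0.724 for hda6 at 22 °C, and at 6.5, 21.1 and 13.1 at 37 °C, and has a copy at 99.0% identity. AT4G29770, annotated as a target of trans-acting small RNAs, was at 0.0995 for Col-0, 0.917 for sant-null and 0.56 for hda6 at 22 °C, and at 4.97, 21.2 and 16.1 at 37 °C. In all 3 the order at 37 °C was sant-null, hda6, Col-0. The authors' deposited table on Col-0 heat put their log2 fold changes at 6.88 ± 0.26, 6.65 ± 0.43 and 6.66 ± 0.38. Against Col-0 at 37 °C the authors' deposited tables gave 1.1 ± 0.08 (adjusted p = 2.03e-40) in sant-null and 0.37 ± 0.08 (adjusted p = 7.51e-05) in hda6 for AT1G50390, 1.66 ± 0.11 (adjusted p = 3.70e-45) in sant-null and 1.02 ± 0.13 (adjusted p = 7.21e-13) in hda6 for AT4G32208, and 2.04 ± 0.10 (adjusted p = 6.37e-97) in sant-null and 1.69 ± 0.10 (adjusted p = 3.57e-57) in hda6 for AT4G29770.

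For 3 other genes that were high after heat, no excess of either mutant over Col-0 was called. PRF4 (AT4G29340), a profilin, which binds actin monomers, and one of the profilins known from pollen, was listed at FPKM 0.188 for Col-0, 0.63 for sant-null and 0.50 for hda6 at 22 °C, and at 4.03, 3.8 and 2.21 at 37 °C. It was the only member called lower at 37 °C, with -0.13 ± 0.18 (adjusted p = 0.807) in sant-null and -0.87 ± 0.19 (adjusted p = 1.25e-04) in hda6 in the authors' deposited tables. MIR158a (AT3G10745), the precursor of microRNA 158a, was at 0.226 for Col-0, 0.853 for sant-null and 1.19 for hda6 at 22 °C, and at 3.35, 4.01 and 2.69 at 37 °C, with 0.22 ± 0.51 (adjusted p = 0.891) in sant-null and -0.32 ± 0.58 (adjusted p = 0.79) in hda6 in the authors' deposited tables at 37 °C. The tRNA-Arg gene AT3G12585 was at 0.171 for Col-0, 0.696 for sant-null and 0.66 for hda6 at 22 °C, and at 4.1, 4.15 and 3.96 at 37 °C, with -0.02 ± 0.61 (adjusted p = 0.994) in sant-null and -0.05 ± 0.63 (adjusted p = 0.977) in hda6 in the authors' deposited tables at 37 °C. Neither of these non-coding genes passed in either mutant.

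**Figure D4:**
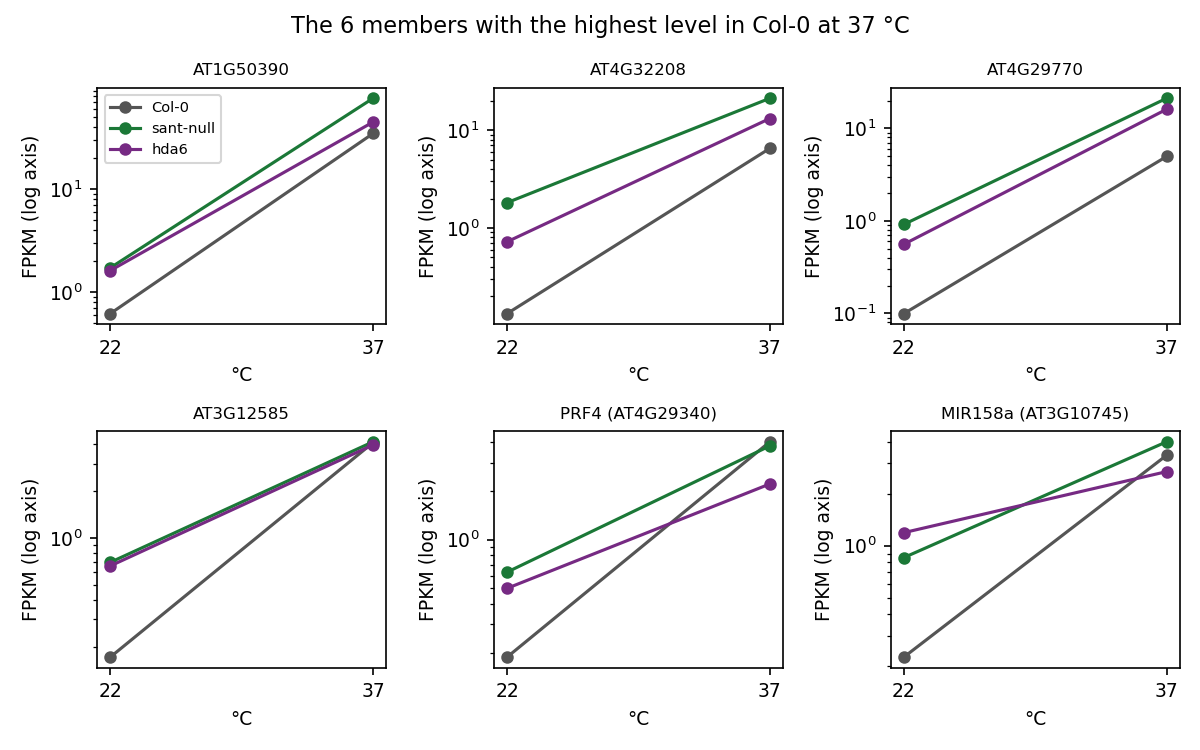
Authors' group FPKM on a log axis at 22 °C and 37 °C in Col-0, sant-null and hda6, 1 panel per gene, for the 6 members with the highest level in Col-0 at 37 °C; lines join group values and no error can be drawn. AT1G50390, AT4G32208 and AT4G29770 keep both mutants above Col-0, while for PRF4 the hda6 value of 2.21 lies below the Col-0 value of 4.03.

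Non-coding genes made up 26 of the 147: 14 long non-coding RNAs, 4 tRNAs, 4 microRNA precursors, 3 small nucleolar RNAs and 1 other. Protein-coding genes were 82.3% of the 147, beside 84.3% of all genes in the table. Such short or unpolyadenylated transcripts are poorly captured in messenger RNA libraries, and 18 of the 26 had a mean normalized count under 10 in the authors' deposited table comparing sant-null with Col-0 at 22 °C. Many of the 26 were not tested at 37 °C. In the authors' deposited tables, 2 were called higher in sant-null and 4 in hda6, all of them long non-coding RNAs. Of that kind, 9 were tested in sant-null and 8 in hda6. Among the protein-coding members, 86 of 116 tested were called higher in sant-null and 73 of 115 in hda6. AT1G05397, a long non-coding RNA, was listed at FPKM 0.0721 for Col-0, 0.705 for sant-null and 0.544 for hda6 at 22 °C, and at 0.0752, 0.976 and 0.716 at 37 °C, with 3.68 ± 0.76 (adjusted p = 5.31e-05) in sant-null and 3.27 ± 0.85 (adjusted p = 0.00125) in hda6 in the authors' deposited tables at 37 °C. AT3G05955, another, was listed at 0.331 for Col-0, 2.14 for sant-null and 1.95 for hda6 at 22 °C, and at 0.131, 0.681 and 0.90 at 37 °C, with 2.29 ± 0.75 (adjusted p = 0.0286) in sant-null and 2.74 ± 0.71 (adjusted p = 0.00119) in hda6 in the authors' deposited tables. These were the 2 called in sant-null. In hda6 the authors' deposited table also called AT3G06955, at adjusted p = 1.93e-10, and AT4G08915, at 0.012.

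MIR841b (AT4G04835) and the long non-coding genes AT4G04855 and AT4G04865 form the longest run of neighbouring members, on chromosome 4. MIR841b was listed at FPKM 0.568 for Col-0, 4.53 for sant-null and 5.42 for hda6 at 22 °C, and at 0.0442, 0.0617 and 0.0941 at 37 °C. AT4G04855 was at 0.556 for Col-0, 3.25 for sant-null and 2.61 for hda6 at 22 °C, and at 0, 0.116 and 0.174 at 37 °C, and AT4G04865 at 0.309 for Col-0, 1.37 for sant-null and 1.09 for hda6 at 22 °C, and at 0.0635, 0.0567 and 0.0888 at 37 °C. All 3 were near 0 in every genotype after heat, and of their changes at 37 °C the authors' deposited tables gave an adjusted p only for MIR841b and AT4G04865 in sant-null, at 0.954 and 0.97. In all, 13 of the 147 fell into 6 groups of members that were next to each other among the genes with a listed FPKM. Other annotated genes were skipped. Members of some groups overlap each other or the same pseudogene, so reads may be shared. How many such groups other sets of genes would give was not computed.

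The genes on either side of the members, where not members themselves, numbered 278. In the authors' deposited tables at 37 °C, 12 of 190 tested (6.32%) were called higher in sant-null and 22 of 174 (12.6%) in hda6, beside the 4.72% and 9.06% of all genes. PDC3, a pyruvate decarboxylase gene beside the member AT5G01320 of the same enzyme family, had a log2 fold change of 2.44 ± 0.27 (adjusted p = 3.46e-17) in sant-null and 0.76 ± 0.37 (adjusted p = 0.156) in hda6 in the authors' deposited tables. AT5G01320 itself was listed at FPKM 0.259 for Col-0, 2.58 for sant-null and 1.53 for hda6 at 22 °C, and at 0.268, 2.02 and 1.27 at 37 °C, with 2.83 ± 0.26 (adjusted p = 3.48e-24) in sant-null and 2.21 ± 0.30 (adjusted p = 2.18e-11) in hda6 in the authors' deposited tables at 37 °C. COR15B, beside the cold-induced member COR15A (AT2G42540), was at 4.54 ± 1.21 (adjusted p = 0.00371) and 3.62 ± 1.37 (adjusted p = 0.0462), and COR15A at 3.01 ± 0.43 (adjusted p = 1.88e-10) in sant-null and 2.14 ± 0.50 (adjusted p = 2.85e-04) in hda6, in the authors' deposited tables at 37 °C. The levels of COR15B were low, at FPKM 0.0569 for Col-0, 0.491 for sant-null and 0.0391 for hda6 at 22 °C. At 37 °C they were 0.011, 0.232 and 0.121.

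Members were spread over all 5 chromosomes, with 38, 23, 32, 27 and 27 on chromosomes 1 to 5, that is 25.9%, 15.6%, 21.8%, 18.4% and 18.4%, beside 26.6%, 15.9%, 19.8%, 15.1% and 22.6% of all genes in the table. An annotated pseudogene lay within 1000 bases of 22 of the 147 (15.0%), beside 6.19% of all genes. Another annotated gene overlapped 53 of them (36.1%), beside 31.9% of all. Of the genes named here and not yet given as such, AT1G30160, AT1G34315, PAB7, eIF6B, AT3G06220, AT3G06630, AT3G12585, MIR841b, AT4G04855, AT4G08915, AT4G16920, AT4G32208, AT5G02885 and ACP5 overlap another gene. The sources used here do not state strand use in the counting, so their reads cannot be told apart from those of the partner. A copy with at least 95% identity over at least 50% of the length was found for 13, AT4G04855 and AT4G32208 among them. These percentages are descriptions and were not tested.

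In the 250 bases upstream, a telo-box (AAACCCTA) was found for 6.12% of the 147 and 4.61% of all genes, and a G-box (CACGTG) for 3.40% and 5.90%. The RY element (CATGCA), known from seed genes, was found for 10.2% and 8.77%. The core of the heat shock element, spelled GAANNTTC, was found for 8.84% and 9.68%. Each was searched on both strands, and a match is a description, not a binding site. The heat shock core lay upstream of REM22 but of none of the 3 chaperone members, the RY element upstream of AT3G53310 and NIT2, and the telo-box upstream of AT5G47600.

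By product, 5 of 191 disease resistance genes, 6 of 652 F-box genes, 4 of 151 C1-domain genes and 20 of 2932 uncharacterized genes were members. Over the whole table it was 147 of 32548 genes. Of all members tested at 37 °C, 67.2% were called higher in sant-null and 60.2% in hda6, and the small counts that follow were not tested against these shares. For the resistance genes, 4 of 5 were called higher in sant-null and 3 of 5 in hda6 in the authors' deposited tables at 37 °C. For the F-box genes, whose products mark proteins for degradation, it was 4 of 6 in each. Of the C1-domain genes, 2 of 4 tested were called in sant-null and 2 of 3 tested in hda6. Among the uncharacterized ones these were 9 of 17 and 6 of 17. AT4G16920, a resistance gene of the TIR-NBS-LRR class, was listed at 0.326 for Col-0, 0.787 for sant-null and 0.764 for hda6 at 22 °C, and at 0.0767, 0.212 and 0.422 at 37 °C, with 1.43 ± 0.40 (adjusted p = 0.0066) in sant-null and 2.47 ± 0.30 (adjusted p = 1.77e-14) in hda6 in the authors' deposited tables at 37 °C. AT4G22390, an F-box gene, was listed at 0.401 for Col-0, 2.14 for sant-null and 1.44 for hda6 at 22 °C, and at 0.206, 1.76 and 1.13 at 37 °C, with 3.07 ± 0.32 (adjusted p = 1.44e-19) in sant-null and 2.48 ± 0.35 (adjusted p = 7.90e-11) in hda6 in the authors' deposited tables at 37 °C.

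None of 8 listed genes known to be silenced by DNA methylation was a member. All of them but QQS were under FPKM 0.5 in both mutants at 22 °C, so the rule could not take them. Of the 8, the authors' deposited tables at 37 °C called 2 higher in sant-null (of 4 tested) and 1 in hda6 (of 3 tested). Over all genes tested at 37 °C, 4.72% were called higher and 4.05% lower in sant-null, and 9.06% and 9.41% in hda6. The counts of this list and of the lists below were not tested against these shares. QQS, an orphan gene of starch metabolism, was at FPKM 0.562 for Col-0, 0.858 for sant-null and 23.5 for hda6 at 22 °C, so its sant-null ratio kept it out. Among 13 REM genes, 4 of 9 tested were higher in sant-null and 3 of 7 in hda6, REM22 included. Of 12 RPD3-type deacetylase genes none was a member. The authors' deposited tables at 37 °C called 1 of 11 higher in sant-null, and 2 of 9 higher and 2 lower in hda6. HDA18, called in both, was at FPKM 0.149 for Col-0, 1.42 for sant-null and 0.477 for hda6 at 22 °C, just under the limit of 0.5. None of the seed, floral-organ or pollen genes was a member or called higher at 37 °C in the authors' deposited tables (11, 10 and 6 genes, of which 4, 6 and 1 were tested in sant-null and 3, 6 and 1 in hda6). All of them but OLEO4 and SEP3 were under FPKM 0.5 in at least 1 mutant at 22 °C, so the rule could not take them. At an unadjusted p under 0.05 in those DESeq2 tables, 1 floral-organ gene was higher in sant-null and 2 in hda6, with 0 of the seed and pollen genes higher in either. At the same unadjusted p, 1 floral-organ gene was lower in each mutant and 2 seed genes were lower in hda6. After adjustment, the seed storage gene CRA1 (adjusted p = 0.0486) and the floral regulator SEP3 (adjusted p = 0.00106) were called lower in hda6 in the authors' deposited table. OLEO3, an oil-body protein outside that list, was a member at 0.148 for Col-0, 1.47 for sant-null and 0.611 for hda6 at 22 °C, and at 0.189, 0.466 and 0.388 at 37 °C, and in the authors' deposited tables at 37 °C it did not pass, with 1.27 ± 0.64 (adjusted p = 0.265) in sant-null and 1.05 ± 0.70 (adjusted p = 0.338) in hda6.

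Other sets, chosen on the same values at 22 °C, are given for comparison. Of 414 genes at least 2-fold up in sant-null but under 2-fold in hda6, the authors' deposited tables at 37 °C called 170 of 384 tested higher in sant-null (44.3%) and 52 of 349 in hda6 (14.9%). Of 247 genes at least 2-fold up in hda6 but under 2-fold in sant-null, the authors' deposited tables called 5 of 80 tested higher in sant-null (6.25%) and 140 of 185 in hda6 (75.7%). For the 147 these counts were 88 of 131 (67.2%) and 77 of 128 (60.2%), and over all genes tested 4.72% and 9.06% were called higher. All rest on the same Col-0 libraries and the difference between the sets was not tested.

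At the edges of the rule, the smaller ratio was 2.02 for AT5G08600 and 2.03 for AT4G16920 and AT3G14700 inside, and 2.0 for AT3G46500 and AT3G56730 and 1.99 for AT4G39580 outside. The smaller mutant FPKM was 0.50 for PRF4, 0.504 for AT5G02885 and 0.511 for AT1G30160 inside, and 0.496, 0.485 and 0.483 for AT5G45310, AT1G23840 and MIR839 outside. In Col-0 the highest members were NIT2, ELF5A-1 and AT1G34315 at 3.56, 2.98 and 2.53, and the nearest gene outside, AT1G65370, was at 5.50. In total 59 of the 147 had a smaller ratio under 2.5 and 26 had at least 4.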

How the data were processed

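Per the submitters' processing notes, the tools were HISAT2 2.2.1, DESeq2 1.30.1, featureCounts 2.0.1 and CASAVA, with TAIR10 as the genome build. Each tool's role and settings, strand and reads with several matches: not given in the sources used here. Therefore genes that overlap others or have near-identical copies are uncertain. The authors deposited FPKM with 1 column per group and 5 comparison tables. In the authors' deposited tables, baseMean is a signal (a mean normalized count), the log2 fold change has a standard error, the Wald score is their ratio, and a p-value and an adjusted p-value (Benjamini-Hochberg) follow. The design allowed for counts of single libraries, but 0 columns hold any, so the deposited tables were used at an adjusted p under 0.05.

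Members were found with Python 3.11.15 by the rule given above. They and the gene lists were chosen with earlier results of these data known. Sant-null was compared with hda6 at 37 °C by a Wald test on the difference of the deposited log2 fold changes, with squared errors summed (an upper bound, as both share Col-0) and Benjamini-Hochberg adjustment over 20614 genes (scipy 1.17.1). The test was tested on simulated data. The simulation drew its errors from the same standard errors, with changes only in genes with a mean normalized count of at least 50. It therefore cannot check those standard errors, nor how many changes are found among members with fewer reads. All 32548 locus identifiers matched RefSeq's TAIR10.1 annotation, from which names, positions and sequences come; no file coordinates were used. Named genes were the 10 largest smaller ratios at 22 °C, the 8 highest smaller mutant FPKM, the 10 largest called rises in each mutant at 37 °C, those called lower, up to 5 differing between mutants in each direction, list members, runs of 3 neighbours, and the 3 genes on each side of each threshold. Alternatives changed the threshold, fold, filter, adjustment, scaling, and the rule's pseudocount, fold, lowest mutant FPKM and Col-0 limit.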

Additional observations from a re-analysis of the deposited data

How the results depend on the processing

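No paired analysis was possible because the FPKM columns hold 1 value per group and the comparison tables carry no replicate number, and leaving out each library could not be run for the same reason. Of 76 recomputed values, 54 stayed within the limits set for them, a fixed ratio for counts and the median SE for medians. Among the 54 are all recomputed counts of members lower in sant-null than in Col-0 at 37 °C, each 0. A smaller set or a stricter threshold could not have changed that 0. The counts called higher at 37 °C (88 in sant-null, 77 in hda6) fell with the size of the set: to 20 and 21 of the 26 genes under a rule of 4-fold, to 48 and 46 of the 68 with a mutant FPKM of at least 1, and to 17 and 15 of the 20 with a pseudocount of 1, where fewer genes enter. The median log2 fold changes moved from 1.87 to 3.52 (4-fold rule) and 2.5 (pseudocount 1) in sant-null, and from 1.55 to 3.25 and 2.13 in hda6. PRF4, the 1 gene lower in hda6, gave 0 when a 2-fold change was asked for, and 0 under the rule of 4-fold, of FPKM at least 1 and of pseudocount 1. The 5 genes higher in sant-null than in hda6 became 1 when at least 2-fold was asked for, 0 under the 4-fold rule and pseudocount 1, and 3 with FPKM at least 1. The 2 lower ones became 1 at an adjusted p under 0.01, with a baseMean of at least 10, with FPKM at least 1 and with pseudocount 1. In an alternative chosen after seeing the data, the 90 members with no overlapping gene and no copy gave 63 higher in sant-null and 55 in hda6. Depth limits the members with a mean normalized count under 10, whose median standard error was 1.47 in sant-null and 1.34 in hda6 and of which 5 of 25 and 9 of 32 tested were called higher. Members with more reads were also left uncalled, with 41 of 62 and 37 of 64 called higher between 10 and 50. Since the count includes the mutant libraries, these ranges are not independent of the calls.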
